A study of Homo sapiens with 6 samples.

Results

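MGLL and PLD1 encode enzymes that act on signalling lipids, and their transcripts were followed here in A375 cells, an established human melanoma line. Both were taken by their gene names from the table deposited with the series, as 2 genes of its 2778 features, each with 1 row. They were chosen by the same counts that are compared here, since both were known to be lower in the overexpressing cells, so their difference is given as a description, without a test. The comparison was between wildtype A375 cells (WT, n = 3 libraries) and A375 cells overexpressing CYGB, the gene of the haem protein cytoglobin (CYGB-OE, n = 3 libraries). Neither group was treated, both grew in the same serum-containing medium, and poly(A) RNA was sequenced. The labels do not say what drives the CYGB transgene, whether the overexpressing cells are 1 clone, or whether each library had a culture of its own, and they name no empty-vector control.

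Monoacylglycerol lipase, the product of MGLL, is a serine hydrolase that splits monoacylglycerols into glycerol and a free fatty acid. Among its substrates is 2-arachidonoylglycerol, an endocannabinoid, so the enzyme both ends a signal at cannabinoid receptors and supplies arachidonic acid, the precursor of prostaglandins. Phospholipase D1, the product of PLD1, cleaves phosphatidylcholine into choline and phosphatidic acid, a lipid messenger in vesicle traffic, exocytosis and mTOR signalling, and it is switched on by ARF GTPases and by protein kinase C. Its close relative PLD2 catalyses the same reaction.

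Stretches of reference coding sequence that carry the catalytic motifs are printed here to show what the transcripts encode and how PLD1 relates to PLD2. The MGLL transcript used here, of 942 coding bases, holds the nucleophile elbow of serine hydrolases (glycine, any residue, serine, any residue, glycine), and its codons are in capitals in the first line. The pattern matched at 2 places in this reading frame, and the stretch shown holds the catalytic serine. It runs from the end of exon 4 to the start of exon 5 on the minus strand of chromosome 3, with its outermost bases at 127722459 and 127721143 (GRCh38). In the lines for the phospholipases the capitals mark the codons of the HKD motif (histidine, any residue, lysine, any 4 residues, aspartate), of which PLD1 and PLD2 hold 2 each. The stretches lie in exons 14 and 24 of PLD1 (chr3:171688784-171688843 and chr3:171620387-171620446, minus strand) and in exons 14 and 22 of PLD2 (chr17:4815785-4815844 and chr17:4819158-4819217, plus strand).
MGLL catalytic serine: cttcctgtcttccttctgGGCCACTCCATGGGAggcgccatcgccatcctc
PLD1 first HKD: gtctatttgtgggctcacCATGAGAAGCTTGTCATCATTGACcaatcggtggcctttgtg
PLD2 first HKD: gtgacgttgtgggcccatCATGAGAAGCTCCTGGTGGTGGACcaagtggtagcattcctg
PLD1 second HKD: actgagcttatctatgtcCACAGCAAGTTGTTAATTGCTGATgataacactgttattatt
PLD2 second HKD: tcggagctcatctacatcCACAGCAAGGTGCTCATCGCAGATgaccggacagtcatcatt
PLD1 and PLD2 shared 41 of 60 bases in the first pair and 43 of 60 in the second, and within the 24 motif bases 17 and 19. The counts are per gene and give no level for single transcripts or exons.

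MGLL (ENSG00000074416) lies on chromosome 3 at 127689062 to 128052190 and PLD1 (ENSG00000075651) at 171600405 to 171810950, 43.5 Mb further along, both protein-coding and on the minus strand (GRCh38, GENCODE release 29). The MGLL gene body overlaps KBTBD12, RNA5SP139 and SEC61A1 on the other strand, none of them in the table. No exon of MGLL or PLD1 shared bases with an exon of the opposite strand. The table feature nearest to MGLL was ABTB1, 8.14 kb away with no protein-coding gene between them, which had 1182 ± 122 normalized counts in WT and 495 ± 128 in CYGB-OE (SD, n = 3 each). On the other side of MGLL the nearest was TMED10P2, a processed pseudogene 486 kb away, with 15.8 ± 8.7 in WT and 3.63 ± 1.65 in CYGB-OE. The nearest table features around PLD1 were ACTRT3, 1831 kb before it, and SPATA16, 1078 kb after it. Both went the other way from PLD1. ACTRT3 had 21.1 ± 5.73 in WT and 61 ± 6.99 in CYGB-OE, and SPATA16 had 0 and 4.54 ± 3.19. Of 113 features tested on chromosome 3, 80 were called lower in CYGB-OE, 70.8% against 70.9% of all features tested (edgeR quasi-likelihood test, Benjamini-Hochberg adjusted p under 0.05).

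RefSeq's promoter table (GRCh38.p14) matched PLD1 among the 2 genes. Its 250 bases before the transcription start, at chr3:171810484-171810733 on the minus strand, lie upstream of the RefSeq start at 171810483 but inside the gene as GENCODE draws it, which reaches 171810950. They are shown for PLD1 alone because MGLL was not matched, with GC boxes (GGGCGG, either strand) in capitals.
PLD1 promoter: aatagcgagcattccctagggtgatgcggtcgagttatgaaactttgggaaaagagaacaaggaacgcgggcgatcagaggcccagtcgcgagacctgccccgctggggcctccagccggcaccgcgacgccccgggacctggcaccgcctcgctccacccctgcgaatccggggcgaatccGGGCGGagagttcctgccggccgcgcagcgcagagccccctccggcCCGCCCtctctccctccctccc
The window had 69.2% G and C, against a median of 58% over 35116 promoters, and 27 CG pairs against a median of 11. GC boxes began 68 and 22 bases before the start and overlapped no other motif searched; 42.6% of promoters hold at least 1 in the same window. The E-box, spelled CANNTG, is held by 61.8% of promoters in the same window and had no match here on either strand. The same was true of the AP-1 motif, spelled TGANTCA and held by 6.57% of promoters, and of the NF-kB motif, held by 9.96%. The TATA box, searched as TATAAA and held by 10.7%, had no match either, which says only that these letters are not in this window.

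Several facts of the table bear on every value below. It is a selection of changed features: the log2 ratios leave a gap around their middle, and this gap, centred here on 0 to set the level between the groups, runs from -0.995 to 0.995. This level, on which all log2 differences and normalized counts below rest, assumes that features were selected by the same fold in both directions. Column totals of 1533260 to 2801576 counts are sums over selected features, not depths. Of 2468 features tested, 99.8% were called and 70.9% were called lower, so being called, or being lower, marks no gene out in this table. CYGB itself, the check of the labels, ranged from 36.3 to 39.3 normalized counts over the WT libraries and from 23160 to 24020 over those of CYGB-OE. CYGB-OE replicate 1 stood apart, at a median absolute difference of 0.455 and 0.461 log2 units per feature from replicates 2 and 3, against 0.211 between those and 0.175 to 0.185 among the WT libraries. Of 9 melanocyte lineage markers TYRP1, DCT and EDNRB were in the table, with a summed level of 1727 to 1910 in WT and 583 to 706 in CYGB-OE. Most of this was EDNRB, with a mean of 1804 ± 93 in WT and 637 ± 57.8 in CYGB-OE (SD, n = 3 each). TYRP1 had means of 25 ± 10.5 and 4.26 ± 3.89. DCT had only 2, 13 and 15 raw counts in WT and 0 in all CYGB-OE libraries, and was not tested. MLANA, PMEL, TYR, MITF, SOX10 and S100B were not analysed here. Of 7 keratinocyte markers 2 were in the table and went opposite ways: KRT14 had a log2 fold change of 1.88 (WT mean 16.6 ± 3.52, CYGB-OE mean 62 ± 8.9) and DSC3 one of -1.13 (462 ± 28.9 and 212 ± 71.6), with a summed level of 448 to 504 in WT and 211 to 359 in CYGB-OE. Summed levels in WT and CYGB-OE were 1.1 to 3.95 and 38.4 to 193 for COL1A2 and COL3A1, 2 of 7 fibroblast markers. In CYGB-OE most of this was COL1A2, at 36.3 normalized counts in replicate 1 and 155 and 173 in replicates 2 and 3. The sums were 79.8 to 117 and 0 to 6.4 for ITGAM, the 1 of 7 leukocyte markers there. They were 166 to 191 and 16.8 to 34.1 for KDR and TIE1, 2 of 6 endothelial markers. The part of these differences in the results below was not tested. A375 is a cell line, so the markers are not read as numbers of other cell types. In bulk RNA, fewer cells with a transcript and less of it per cell cannot be told apart.

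MGLL was about 4-fold less abundant in CYGB-OE. In order of replicate number, its raw counts were 4546, 6540 and 4720 for WT and 1117, 1176 and 1364 for CYGB-OE. After scaling these were 4999, 5169 and 5017 normalized counts in WT and 1191, 1313 and 1240 in CYGB-OE. The lowest WT library was thus far above the highest CYGB-OE library, and within each group the libraries lay close together. The mean was 5062 ± 93.3 in WT and 1248 ± 61.3 in CYGB-OE (SD, n = 3 each), a coefficient of variation of 1.84% and 4.91%. On the log2 scale the difference was -2.02 (SE 0.09), a 4.06-fold higher level in WT.

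PLD1 started from nearly the same count in WT and was lower than MGLL in CYGB-OE. Its raw counts were 4453, 6297 and 5034 for WT and 583, 734 and 833 for CYGB-OE. In normalized counts these were 4897, 4977 and 5350 in WT and 622, 820 and 757 in CYGB-OE. Here too the groups did not overlap, and CYGB-OE replicate 1 was the lowest of all. The mean was 5075 ± 242 in WT and 733 ± 101 in CYGB-OE (SD, n = 3 each), and the log2 difference was -2.79 (SE 0.13), a 6.92-fold higher level in WT. Groups did not overlap in 98.3% of all features, and in 70.1% every CYGB-OE library was below every WT library, and the genes were chosen for this contrast, so nothing is read from it.

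**Figure D1:**
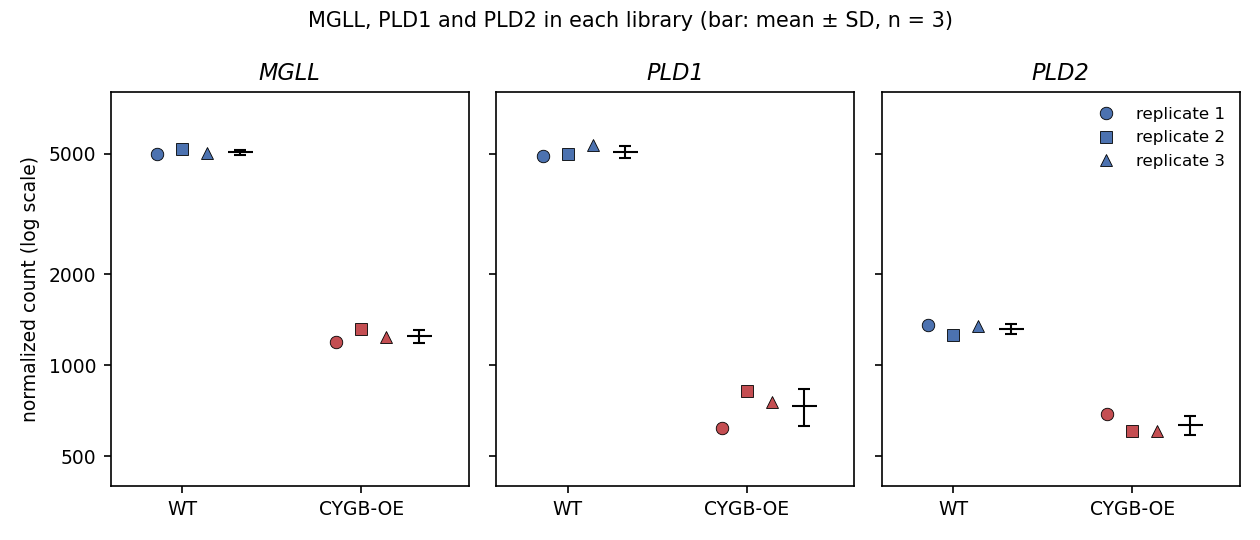
Normalized counts (log scale) of MGLL, PLD1 and PLD2 in each of 3 WT (blue) and 3 CYGB-OE (red) libraries, with the mean and SD of each group as a black bar. The WT means of MGLL and PLD1 are 5062 and 5075 and their CYGB-OE means 1248 and 733, while PLD2 goes from 1319 to 634.

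The level of both members is set in part by the scaling between the groups, their order is not. With TMM over the whole table, which raises all log2 differences by 1.2 and leaves 48.4% of features called, 19.4% lower, the difference was -0.82 for MGLL and -1.59 for PLD1. Column totals gave -1.67 and -2.44. A ratio of 2 genes within a library does not depend on the scaling. PLD1 over MGLL was 0.980, 0.963 and 1.07 for WT and 0.522, 0.624 and 0.611 for CYGB-OE. All 3 CYGB-OE values lay below all WT values, and the mean log2 ratio was 0.00 ± 0.08 in WT and -0.78 ± 0.14 in CYGB-OE (SD, n = 3 each).

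PLD2, the other phospholipase D in the table, was lower in CYGB-OE by a smaller step. It had 1355, 1256 and 1346 normalized counts in WT and 688, 606 and 607 in CYGB-OE, with no overlap. The log2 fold change was -1.06 (SE 0.11), and it turned to 0.14 under TMM over the whole table. PLD1 over PLD2 was 3.61, 3.96 and 3.98 for WT and 0.904, 1.35 and 1.25 for CYGB-OE, so that PLD1 had the fewer counts of the pair in CYGB-OE replicate 1 alone. The ratio was 3.34-fold higher in WT, whatever the scaling. PLD3, PLD4, PLD5, PLD6 and GPLD1 were not in the table and were not analysed here.

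**Figure D2:**
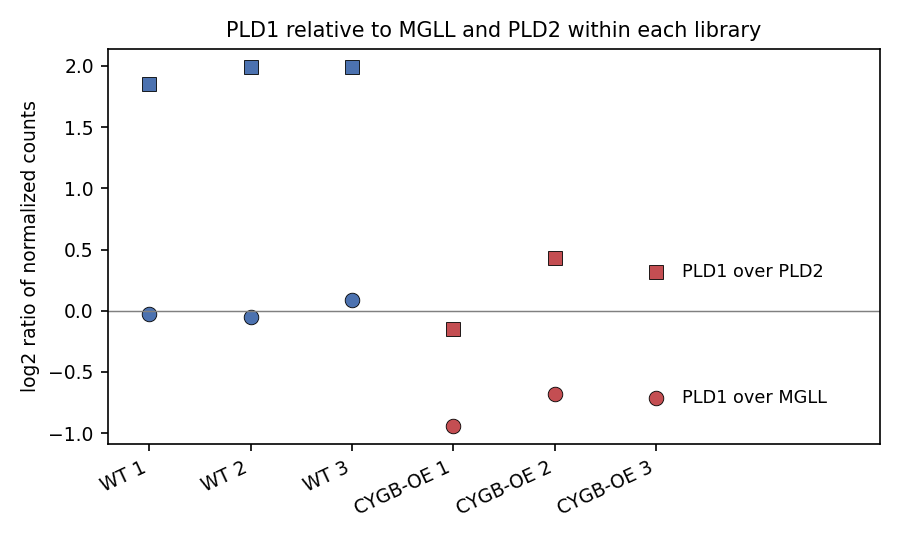
Log2 ratio of normalized counts within each library, PLD1 over MGLL (circles) and PLD1 over PLD2 (squares), in WT (blue) and CYGB-OE (red). Both ratios are lower in every CYGB-OE library than in any WT library.

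Levels of different genes can be set side by side only per length. Per kilobase of the joined exons of all annotated transcripts, MGLL had 427 ± 7.88 normalized counts in WT, PLD1 395 ± 18.8 and PLD2 269.8 ± 11.2 (SD, n = 3 each). The same level in CYGB-OE was 129.7 ± 9.60 for PLD2, 105 ± 5.17 for MGLL and 57.0 ± 7.86 for PLD1, so that the gene with the lowest level in WT had the highest in CYGB-OE. This order rests on the length used. Per kilobase of coding sequence, MGLL was highest in both groups (5373 ± 99.1 and 1325 ± 65.1), and PLD1 and PLD2 stood at 1574 ± 75.0 and 471 ± 19.5 in WT and at 227 ± 31.3 and 226 ± 16.8 in CYGB-OE, where they did not differ beyond their spread. By both lengths PLD1 was above PLD2 in WT and not above it beyond their spread in CYGB-OE.

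Both members were among the features of the table with the most counts, which are not divided by length here. By mean normalized count over the 6 libraries MGLL ranked 109 and PLD1 118 of 2468 features tested. By the size of the fall MGLL ranked 492 and PLD1 190 among the 1754 features with a lower CYGB-OE level, whose median log2 difference was -1.57. Among those, 7 had both a higher mean WT count and a larger fall than PLD1, and 17 than MGLL. These ranks describe the table and carry no test.

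**Figure D3:**
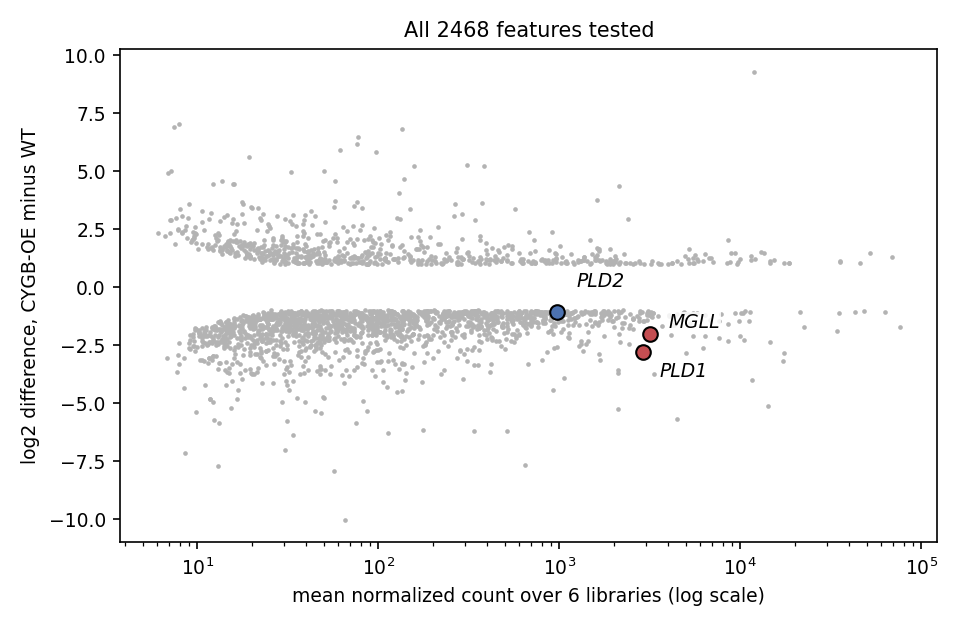
Log2 difference (CYGB-OE minus WT) against mean normalized count over 6 libraries (log scale), 1 grey point for each of 2468 features tested, with MGLL and PLD1 in red and PLD2 in blue. The band around 0 is empty because of how the table was selected, and MGLL and PLD1 lie below it towards the high counts.

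The library that stood apart left the members' values nearly as they were. Without CYGB-OE replicate 1 the log2 difference was -1.99 for MGLL and -2.69 for PLD1. In that library PLD1 lay 0.23 log2 units below the CYGB-OE mean and MGLL 0.07 below. Of 183 other features with a lower CYGB-OE level and a mean of at least 1000 normalized counts, CYGB-OE replicate 1 was the highest CYGB-OE library in 101 and the lowest in 68. Of those 183, 26 deviated downward there by as much as PLD1. MGLL varied little within CYGB-OE, with an SD of 0.07 log2 units, and 20 of the 183 had a smaller one. PLD1 had an SD of 0.20, which is also the median of features with a lower level and a mean of at least 1000 normalized counts.

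Around the members, 163 other genes of 8 lipid signalling lists were looked up. The table held 23 of them. The test could be run on 21, and 4 rose and 17 fell (edgeR quasi-likelihood test, adjusted p under 0.05), against 28.9% higher and 70.9% lower among all features tested. Their median log2 fold change was -1.59 and that of all features -1.29. With TMM over all features, 15 of the 17 stayed below 0 and 8 of them passed the test, and the 4 higher genes passed it too. Under that scaling 19.4% of all features tested were called lower and 28.9% higher. Adjusted over all annotated genes, 2 of the list members were called higher and 14 lower, where 73.8% of features were called, 54.3% lower and 19.4% higher. PLIN4, DGKI, PLPP4, ALOX15B and PTGER4 lost their call under this adjustment (edgeR adjusted p = 0.461, 0.0901, 0.195, 0.067 and 0.161). The other 140 genes were not analysed here. They include all 22 listed activators of phospholipase D, among them ARF GTPases and protein kinase C forms.

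Closest to MGLL in function, the endocannabinoid and monoacylglycerol list of 18 genes had MGLL and FABP5 in the table. FABP5, a fatty acid binding protein that carries endocannabinoids and fatty acids inside cells, rose from 967, 986 and 972 normalized counts in WT to 1945, 2252 and 2390 in CYGB-OE. Its log2 fold change was 1.17 (SE 0.11), opposite in direction to MGLL. The lipases ABHD6 and ABHD12, the 2-arachidonoylglycerol synthases DAGLA and DAGLB, FAAH and the cannabinoid receptors CNR1 and CNR2 were not analysed here.

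In triglyceride storage, upstream of the monoacylglycerols that MGLL uses, 3 of 4 listed genes in the table fell and 1 rose. Of all features tested, 70.9% were called lower and 28.9% higher. HILPDA, a lipid droplet protein that inhibits the triglyceride lipase ATGL, had 2186, 2471 and 2216 normalized counts in WT and 701, 553 and 542 in CYGB-OE, a log2 fold change of -1.94 (SE 0.13). G0S2, another ATGL inhibitor, had -2.42 (SE 0.33) from low counts, with a mean of 7.43 ± 2.74 normalized counts in CYGB-OE. DGAT2, which makes triglyceride from diacylglycerol, had -1.38 (SE 0.13), and it did not pass the test under TMM over the whole table (-0.18). PLIN4, a lipid droplet coat protein, had 203, 221 and 215 normalized counts in WT and 209, 647 and 702 in CYGB-OE, so CYGB-OE replicate 1 was at the WT level. Its log2 fold change was 1.29 (edgeR adjusted p = 0.0193), and the call was lost without CYGB-OE replicate 2 or 3 (adjusted p = 0.0506 and 0.0567), with limma-voom (0.0577) and when adjusted over all annotated genes (0.461).

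Enzymes that make or remove phosphatidic acid, the product of PLD1, moved both ways. The diacylglycerol kinases make it by phosphorylation. DGKG rose from 145, 129 and 152 normalized counts in WT to 495, 275 and 288 in CYGB-OE (log2 fold change 1.31, SE 0.24). Without CYGB-OE replicate 1, its highest library, the DGKG value was 0.99. DGKI rose by 1.40 (SE 0.35) on the log2 scale from a mean of 10.1 ± 3.56, a call that ended when adjusted over all annotated genes (edgeR adjusted p = 0.0901). DGKB had 28 counts over the WT libraries and 3 over the CYGB-OE libraries, a WT level 8.79-fold higher (exact 95% interval 2.71 to 45.2, counting error only), and was not tested. PLPP4, a phosphatase that removes the phosphate of phosphatidic acid, had 69.3, 72.7 and 63.8 normalized counts in WT and 43.7, 13.4 and 10.9 in CYGB-OE. Its log2 fold change was -1.61 (SE 0.46), and -2.50 without CYGB-OE replicate 1. It did not pass the test with TMM over all features (-0.41).

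Genes of lysophosphatidic acid and sphingosine 1-phosphate signalling in the table were all lower. In 70.1% of all features every CYGB-OE library was below every WT library. ENPP2 encodes autotaxin, the secreted lysophospholipase D that makes lysophosphatidic acid from lysophosphatidylcholine. It had 333, 345 and 396 normalized counts in WT and 58.7, 88.2 and 92.7 in CYGB-OE, a log2 fold change of -2.16 (SE 0.20). S1PR4, a sphingosine 1-phosphate receptor, had -2.02 (SE 0.22). LPAR4, a lysophosphatidic acid receptor, had 28 counts over the WT libraries, 20 of them in WT replicate 2, and 0 in the CYGB-OE libraries. With a floor of 3 counts over the CYGB-OE group, the lower bound of its WT level over its CYGB-OE level was 8.79-fold. This value leaves out the error of the WT count, and LPAR4 was not tested.

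Arachidonic acid is released by cytosolic phospholipase A2 and, through MGLL, from 2-arachidonoylglycerol. All 8 genes of the phospholipase A2 and eicosanoid list in the table, of 39 listed, fell. Among all features tested 70.9% were called lower. PLA2G4A, the main cytosolic phospholipase A2, had 863, 888 and 954 normalized counts in WT and 261, 313 and 386 in CYGB-OE (log2 fold change -1.49, SE 0.15). PTGS1, cyclooxygenase 1, which turns arachidonic acid into prostaglandin H2, had 257, 303 and 303 in WT and 57.6, 116 and 112 in CYGB-OE (log2 fold change -1.59, SE 0.26). Neither passed the test under TMM over the whole table, where their values were -0.29 and -0.40. The largest falls were at low counts: PLA2G4C had a log2 fold change of -4.06, PTGIS, prostacyclin synthase, of -3.57, and PTGFR, the prostaglandin F receptor, of -3.64, each with a CYGB-OE mean of 2.81 to 3.35 normalized counts. Without CYGB-OE replicate 1 PLA2G4C had -4.80 and PTGFR -4.24. The lipoxygenases ALOX12B and ALOX15B had -1.74 and -1.29, and 26.8% of the ALOX12B exon bases are shared with AC129492.1 on the other strand, also in the table, so its reads are uncertain. The log2 fold change of PTGER4, a prostaglandin E2 receptor, was -1.11, and 0.08 with TMM over all features. ALOX12B and ALOX15B did not pass the test with that scaling (-0.55 and -0.10).

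Phospholipase C enzymes give diacylglycerol, from which 2-arachidonoylglycerol is made. PLCD1 had 614, 645 and 690 normalized counts in WT and 140, 182 and 179 in CYGB-OE, a log2 fold change of -1.96 (SE 0.15). PLCG2 had -1.28 (SE 0.26), which did not pass the test under TMM over the whole table (-0.09). The other 12 of 14 listed genes were not in the table.

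**Figure D4:**
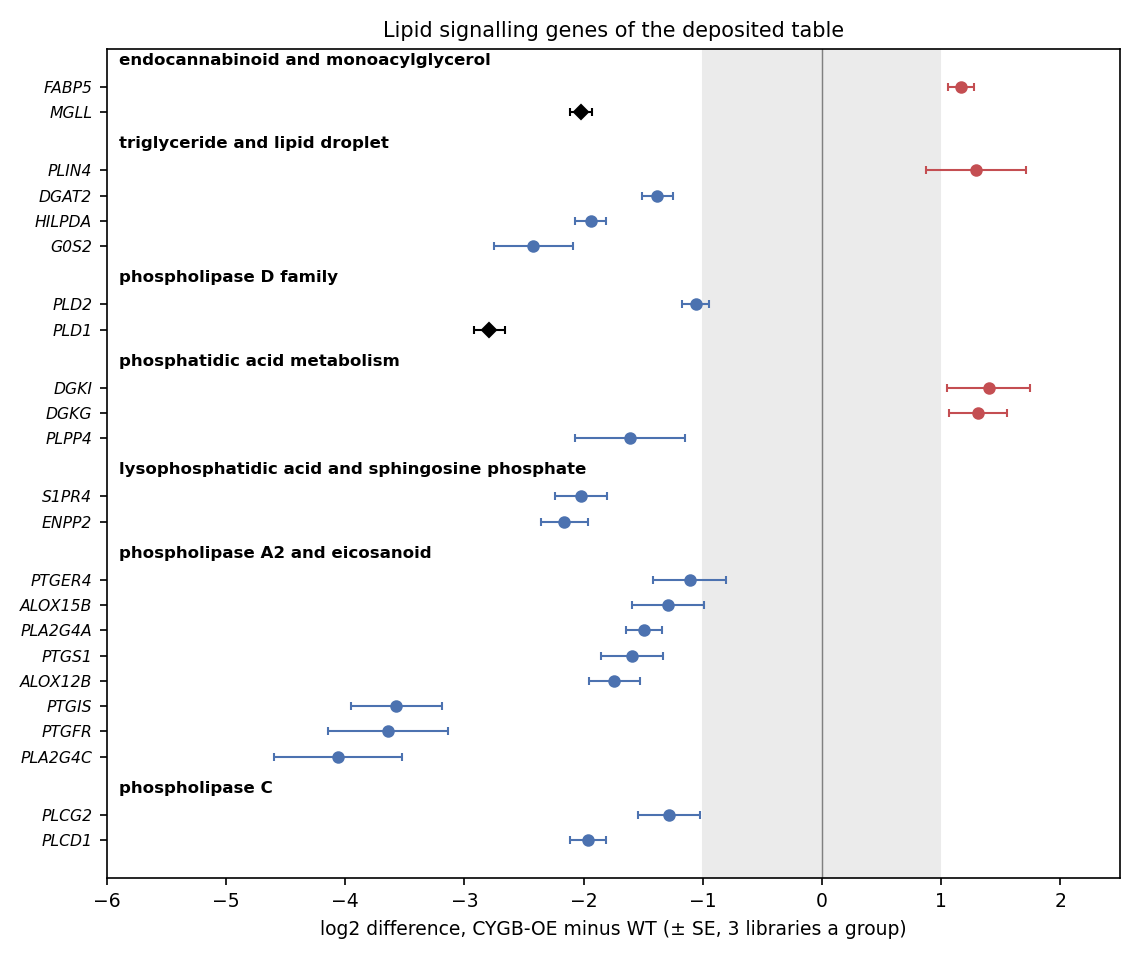
Log2 difference (CYGB-OE minus WT) with its SE for MGLL and PLD1 (black diamonds) and the 21 tested genes of the lipid lists, higher in red and lower in blue, with the empty band of the table in grey. FABP5, PLIN4, DGKG and DGKI lie to the right of the band, and the other genes to its left or at its edge.

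The genes most like each member were found by the distance between log2(normalized count + 1) values, centred on their mean over the 6 libraries, among 1064 other named genes with a mean of at least 100 normalized counts. For MGLL they were FMNL1 (a formin, distance 0.140), FAXDC2 (0.145), RAP1GAP (a GTPase-activating protein for Rap1, 0.153), CYP2J2 (an arachidonic acid epoxygenase, 0.205) and EYS (0.208), against a median distance of 1.18. All 5 had log2 differences between -2.08 and -2.03. The nearest to PLD1 were IGFBP7 (an insulin-like growth factor binding protein, 0.332), SLC29A4 (a monoamine transporter, 0.394), TMEM47 (0.480), SMOC1 (0.513) and ABCB4 (a phosphatidylcholine transporter, 0.517), against a median of 2.06. The 5 nearest to PLD1 had log2 differences between -3.20 and -2.63, against -2.79 for PLD1. The distance includes the step between the groups, the contrast by which the members were chosen. PLD1 ranked 321 in distance from MGLL, and MGLL 55 in distance from PLD1, at 0.980. These neighbours rest on CYGB-OE replicate 1: without it, 0 of the 5 nearest genes were shared for either member. Leaving out any other library kept 3 to 5 of them. With a pseudocount of 10, 4 of the 5 remained for MGLL and all 5 for PLD1.

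**Figure D5:**
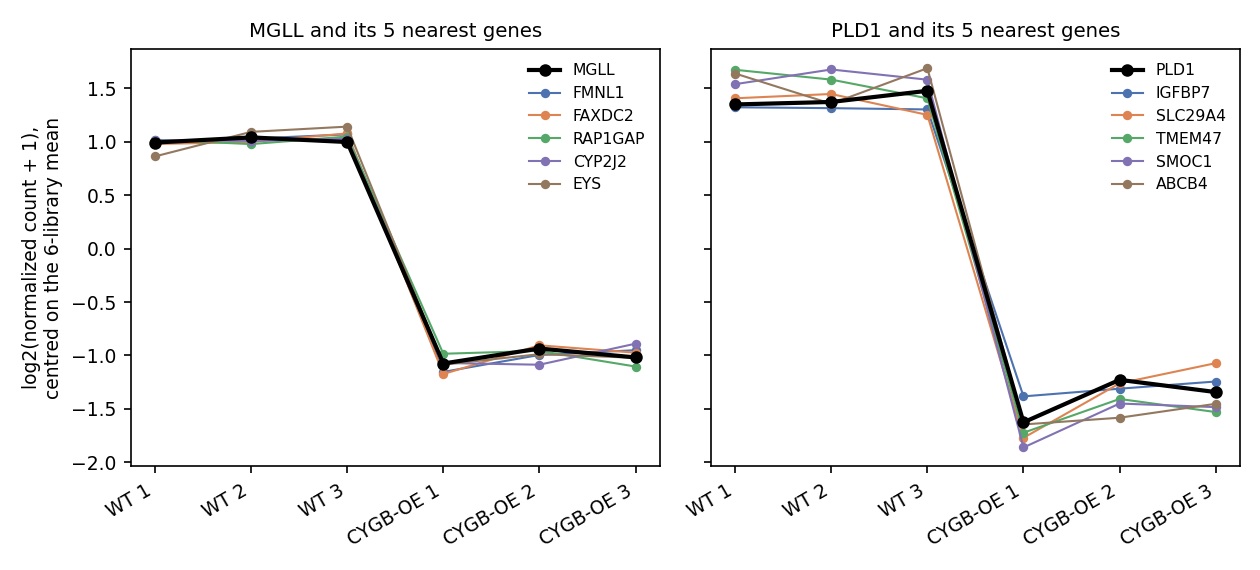
Centred log2(normalized count + 1) in each library for MGLL (left, black) and PLD1 (right, black) with the 5 nearest genes of each in colour, where lines only join the values of 1 gene. The MGLL neighbours lie close to it, with EYS the furthest in WT, while those of PLD1 spread more widely around it.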

How the data were processed

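RNA of 3 WT and 3 CYGB-OE libraries of A375 cells was measured by poly(A) RNA sequencing. The authors deposited raw counts per feature, 1 column per library; Trimmomatic 0.36, STAR 2.5.2b, Subread 1.5.2 with featureCounts, and the build GRCh38 are named, per the submitters' processing notes. The sources used here do not give the annotation that was counted or the strand setting, so reads of genes that overlap on opposite strands cannot be told apart. Unnamed loci held 1.25% to 1.64% of a library's counts and stayed in the fit as features of the table. Of 2615 Ensembl identifiers 2611 were found in GENCODE release 29.

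Counts were tested over the whole table with edgeR 4.0.16 (R 4.3.3): quasi-likelihood F test, two-sided, filterByExpr with a minimum count of 10, robust, group as the only term, Benjamini-Hochberg adjustment over the features tested, threshold 0.05. TMM scaling was done inside each group, and the groups were then set level at the middle of the empty band of log2 ratios (width 1.99). Dividing counts by these factors gave normalized counts. SEs come from the F statistic. The tests were checked on simulated counts scaled by TMM, in which most features did not change, unlike in this table. The level between the groups was checked on simulated features selected by the same fold in both directions. That check therefore cannot bear on whether the table was selected so. Alternatives were other scalings, filters, a replicate block, DESeq2 1.42.0, limma-voom (limma 3.58.1), leaving out each library and adjusting over 58735 annotated genes. Intervals and floors cover counting error only, and floors leave out that of the WT count.

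The members and gene lists were chosen with earlier results of these data known. Named are MGLL, PLD1, CYGB, list members in the table, the 5 nearest genes in pattern of each member, and neighbours on the chromosome. P-values reflect the spread among these 6 libraries alone, and that spread may be technical. Because the table was selected on differences among the same libraries, a call is not independent evidence.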

Additional observations from a re-analysis of the deposited data

How the results depend on the processing

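The scaling between the groups moved the log2 differences of both members. MGLL had a log2 difference of -0.82 with TMM over the whole table, -0.81 with DESeq2 size factors, -1.16 with upper-quartile factors and -1.67 with total counts, and PLD1 had -1.59, -1.59, -1.93 and -2.44. Features called lower numbered 480, 476 and 910 under the first 3 of these, against 1749. List members called lower numbered 8 with TMM and 8 with DESeq2 size factors, against 17. PLD2 turned to 0.14 and 0.15 and PTGER4 to 0.08 and 0.09 under those 2 scalings. Features called higher numbered 713 and stayed at 714 with TMM, but went to 480 when adjusted over all annotated genes and to 501 with at least 10 counts in every library. Adjusted over all annotated genes, 2 list members were higher, against 4, and 14 lower. Leaving out each library gave -2.06 to -1.99 for MGLL, -2.88 to -2.69 for PLD1 and -0.82 to -0.70 for their difference, 708 to 751 features higher, 1761 to 1840 lower, and 3 to 4 list members higher and 17 lower. Per coding length, an alternative chosen after seeing the data, the log2 ratio of PLD1 to PLD2 went from 0.55 to 1.74 in WT and from -1.19 to 0.00 in CYGB-OE.

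Replicate numbers gave no sign of a pairing of the libraries: deviations of same-numbered libraries correlated at -0.0127, -0.0689 and -0.000475 over features. With 3 libraries a group this cannot show that there was none. With the replicate block 712 features were higher and 1750 lower, with MGLL at -2.02 and PLD1 at -2.80. Library depths are unknown because the table is a selection, and genes outside it were not analysed here.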
